A study of Mus musculus with 6 samples.

Results

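Pou5f1, Sox2, Nanog, Esrrb, Sall4, Prdm14, Nr0b1, Nr5a2 and Tbx3 encode the core transcription factors of pluripotency and their close partners, and these 9 genes are described here in mouse embryonic stem (ES) cells that lack Tex19.1. They were taken by symbol from the authors' deposited table, which holds 10128 genes, and all 9 were found in it. RNA sequencing compared 2 genotypes, Tex19.1+/- and Tex19.1-/-, with 3 libraries of each, in cells derived from the parental line E14Tg2a on a 129/Ola background. Both genotypes were grown on gelatin in serum with leukaemia inhibitory factor (LIF), and the controls already carried 1 disrupted Tex19.1 allele. The labels do not say whether the 3 libraries of a genotype came from separate clones or cultures. P-values therefore measure the spread between these libraries, which may be technical.

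Tex19.1 is active in germ cells, the placenta and pluripotent cells of mammals, and the comparison addresses how its loss alters the transcriptome of ES cells. The table gives 1 log2 fold change, 1 mean level and 1 p-value per gene over all libraries, so the depth and the value of each library are unknown and no spread between libraries can be shown. Fold changes are given as Tex19.1-/- over Tex19.1+/-. The header does not name the direction. It was read from Tex19.1 itself, at -6.92 in the authors' deposited table with a mean of 13.8 CPM (read counts scaled to library size), and so that gene is no separate check of the labels.

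In ES cells OCT4 (the product of Pou5f1), SOX2 and NANOG bind many of the same control regions, their own among them, and hold the pluripotent state in a loop of mutual activation. OCT4 and SOX2 bind DNA side by side on a composite site, while the orphan nuclear receptors ESRRB and NR5A2 bind a shared short site and feed into the same genes. SALL4, PRDM14, TBX3 and the corepressor-like receptor NR0B1 (DAX1) tune that network and hold off lineage genes. Serum with LIF keeps ES cells in a mixture of states in which levels of NANOG, ESRRB, TBX3 and PRDM14 differ from cell to cell.

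The stretches of 250 bases before the RefSeq transcription starts of the core trio are shown to look for the letters of such sites in their own promoters. They come from RefSeq on GRCm38.p6, plus strand, where 6 of the 9 genes matched an entry. Capitals mark matches to the SOX letters CATTGT, the POU letters ATGCAAA, the joined site (the SOX letters, 1 free base, then the POU letters, and so overlapping both) and TCAAGGNNA (a loose form of the orphan receptor site TCAAGGTCA), on either strand. The letters were chosen with these promoters in view.
Nanog, chr6:122707239-122707488: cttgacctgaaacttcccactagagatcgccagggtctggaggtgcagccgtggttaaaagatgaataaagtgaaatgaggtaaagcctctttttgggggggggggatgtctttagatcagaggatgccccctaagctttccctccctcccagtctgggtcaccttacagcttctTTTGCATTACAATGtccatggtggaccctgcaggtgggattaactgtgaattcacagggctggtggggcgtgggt
Sox2, chr3:34649745-34649994: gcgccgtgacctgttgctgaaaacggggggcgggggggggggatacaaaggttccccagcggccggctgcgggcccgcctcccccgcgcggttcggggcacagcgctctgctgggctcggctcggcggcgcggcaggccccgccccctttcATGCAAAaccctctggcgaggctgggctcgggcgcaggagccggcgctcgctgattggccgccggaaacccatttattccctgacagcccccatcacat
Pou5f1, chr17:35505782-35506031: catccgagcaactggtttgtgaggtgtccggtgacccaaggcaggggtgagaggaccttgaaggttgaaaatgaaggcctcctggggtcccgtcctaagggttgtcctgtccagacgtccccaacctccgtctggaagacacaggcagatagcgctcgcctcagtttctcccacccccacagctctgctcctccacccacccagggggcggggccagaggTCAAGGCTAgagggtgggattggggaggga

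The joined SOX and POU site was found before Nanog, from 75 to 62 bases before the start, and it was on the opposite strand there. Of 32851 such windows over all RefSeq starts, 2 held the joined site (0.00609%), and both were windows of Nanog, which has a pair of overlapping starts. These 2 windows share the same site. Because the letters were chosen with these promoters in view, that small share lends no weight to the match. Sox2 held the POU letters alone, from 99 to 93 bases before its RefSeq start, which 4.12% of all windows do. That start, at 34649995, lies 410 bases upstream of the GENCODE start of Sox2. Pou5f1 held the loose orphan receptor letters from 30 to 22 bases before its start, a match found in 3.83% of windows. The strict form TCAAGGTCA, found in 0.387% of all windows, was in none of the 10 windows of these genes. The SOX letters alone occurred in 10.7% of all windows and, besides Nanog, in the window of a second, internal RefSeq start of Pou5f1. A match of letters is a description of the sequence and not a measured binding site. The Sox2 promoter was the richest in G and C at 72.0%, against 62.0% for Pou5f1, 52.0% for Nanog and a median of 52.4% over all windows. It held 27 CpG pairs, against 8 and 3 for Pou5f1 and Nanog and a median of 6.

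Set side by side, the 9 genes spanned a wide range of levels. Levels between genes are compared as mean CPM per kilobase of annotated exon over all libraries, in the order shown in the bar plot of levels per length. Pou5f1 was highest at 670.5 CPM per kb. Nanog at 185 and Sox2 at 155 followed, then Esrrb at 124 and Nr0b1 at 118. Sall4 stood at 47.2, and Tbx3 at 15.2, Nr5a2 at 13.5 and Prdm14 at 10.5 closed the order. No spread between libraries is known for these means, so the order of close neighbours such as Esrrb and Nr0b1 is not established. Exon lengths join all annotated isoforms of a gene, so the level per kb would be understated for a gene whose long exons are little used; which isoforms were made was not analysed here.

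**Figure D1:**
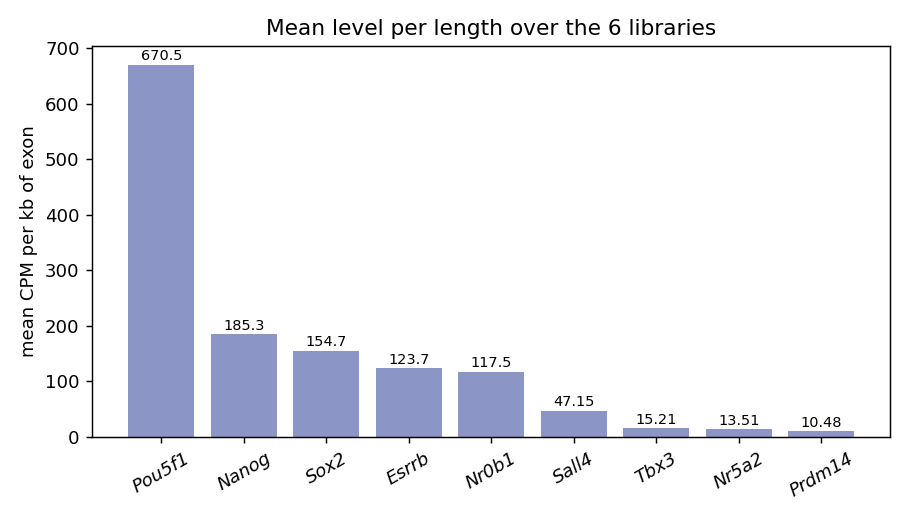
Mean expression of the 9 genes over the 6 libraries in CPM per kb of exon, as bars from 0 with the value above each. Pou5f1 at 670.5 stands well above Nanog at 185, and Tbx3, Nr5a2 and Prdm14 lie between 10.5 and 15.2.

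Changes among the 9 genes were small and went in both directions. At the authors' adjusted p under 0.05, 4 of the 9 genes rose (Sox2, Nanog, Sall4 and Prdm14), 2 fell (Nr0b1 and Tbx3) and 3 did not pass (Pou5f1, Esrrb and Nr5a2). The 6 that changed make 66.7% of the 9, where 51.7% of all genes in the table changed, 25.2% upward and 26.5% downward. For so few genes that share is near the background. None of the 9 changed 2-fold or more, as 1.46% of all genes did. Their median log2 fold change was 0.03, against 0.00 (0.0031 before rounding) over all genes, and their median size without sign was 0.12 against 0.11. Summed over the 9 genes, the level implied for each genotype was 3694 CPM in Tex19.1+/- and 3645 CPM in Tex19.1-/- cells. The implied level of a genotype is the pair of CPM values that fits the authors' mean and fold change, and it is not a library's own value.

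**Figure D2:**
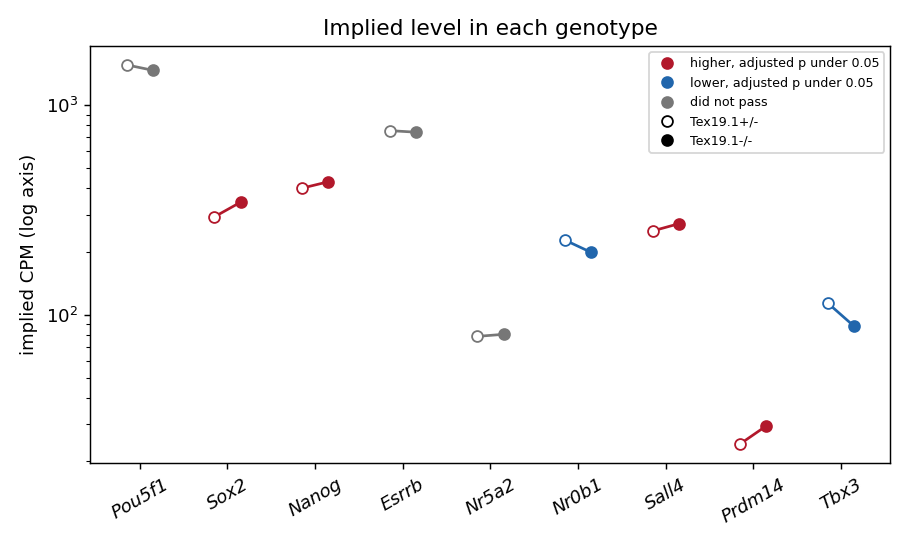
Implied CPM (log axis) of each gene in Tex19.1+/- cells (open circles) and Tex19.1-/- cells (filled circles), coloured by the authors' test. The lines are short for all 9 genes; the steepest are Tbx3, from 113.5 down to 88.0 CPM, and Prdm14, from 24.2 up to 29.5 CPM.

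Within the core trio, Sox2 rose, Nanog rose slightly and Pou5f1 did not pass. Sox2, whose product is the HMG-box partner of OCT4, had an implied 293 CPM in Tex19.1+/- and 344 CPM in Tex19.1-/- cells, a rise of 17.4%. In the authors' deposited table it stood at 0.23 on the log2 scale (adjusted p = 5.86e-09). An approximate 95% interval, taken from the authors' fold change and p-value with a normal approximation, ran from 0.16 to 0.31. Intervals of this kind follow from the p-value and are not a measured spread. Sox2 lies on chromosome 3 from 34650405 to 34652461 (GRCm38, plus strand) as a single exon inside the long noncoding gene Sox2ot, which runs in the same direction. Reads from the shared stretch cannot be told apart by strand, and Sox2ot was not analysed here.

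Nanog, which encodes the homeodomain factor that makes ES cells less dependent on LIF, had an implied 401 CPM in Tex19.1+/- and 430 CPM in Tex19.1-/- cells. That is a rise of 7.23%, or 0.10 on the log2 scale in the authors' deposited table (adjusted p = 0.0359; implied interval 0.02 to 0.18). The call is a narrow one: with a trend of fold changes on GC content and transcript length subtracted, Nanog stood at 0.0897 with an adjusted p of 0.0654, and it did not pass Bonferroni adjustment or an adjusted p under 0.01. Nanog lies on chromosome 6 from 122707489 to 122714633 (plus strand). GENCODE names 2 processed pseudogenes of it, and how reads shared with such copies were counted is not given in the sources used here. Its nearest measured neighbours also passed upward: Gdf3, a TGF-beta family gene 97.4 kb away, at 0.18, and the glucose transporter gene Slc2a3, 13.2 kb away, at 0.11 in the authors' deposited table. The median of the 20 nearest measured genes there was 0.02, with 6 up and 5 down.

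Pou5f1, the gene of OCT4, had an implied 1552 CPM in Tex19.1+/- and 1462 CPM in Tex19.1-/- cells, a difference of -5.80%. At -0.09 on the log2 scale in the authors' deposited table it missed the threshold (p = 0.0279, adjusted p = 0.0534), with an implied interval from -0.16 to -0.01. It sat at the threshold: centring the fold changes on the median of all genes gave -0.0893 with an adjusted p of 0.0449, and subtracting the trend on GC content and length gave -0.11 with an adjusted p of 0.0104. Pou5f1 lies on chromosome 17 from 35506018 to 35510772 (plus strand), and an antisense gene, Gm19553, overlaps it. Its nearest measured neighbours were the histocompatibility gene H2-Q6, of a family of close copies, at 0.53 and Tcf19, 1.96 kb away, at -0.23 in the authors' deposited table. Relative to Pou5f1, Sox2 was 24.7% higher in Tex19.1-/- than in Tex19.1+/- cells and Nanog 13.8% higher, as ratios of the authors' fold changes; the table allows no test of these ratios. Among the 300 genes nearest in mean level, the size of change was larger than that of 87.0% for Sox2, 55.0% for Nanog and 47.0% for Pou5f1. Sox2 thus stood in the upper part of its expression class, while Nanog and Pou5f1 were close to its middle.

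**Figure D3:**
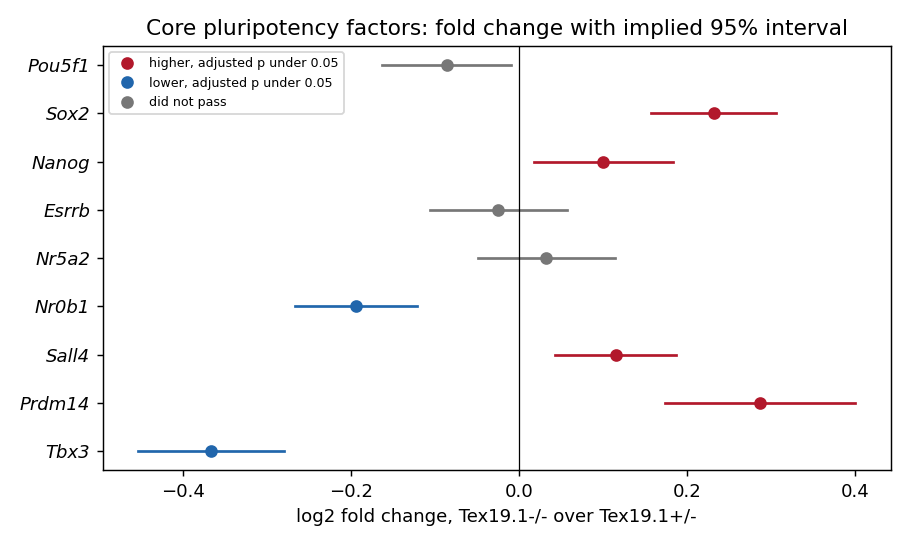
Log2 fold change of each gene, Tex19.1-/- over Tex19.1+/- (points), with the approximate 95% interval implied by the authors' p-value (lines), coloured by the authors' adjusted p. Prdm14 at 0.29 and Tbx3 at -0.37 mark the ends, and the intervals of Esrrb and Nr5a2 span 0.

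Of the 3 orphan nuclear receptor genes, Nr0b1 fell while Esrrb and Nr5a2 did not pass. Nr0b1 encodes DAX1, an atypical receptor without a classic DNA-binding domain that restrains OCT4 and NR5A2. Its implied level was 227 CPM in Tex19.1+/- and 198 CPM in Tex19.1-/- cells, so that it fell by 12.6%. The authors' deposited table gives -0.19 on the log2 scale (adjusted p = 8.78e-07; implied interval -0.27 to -0.12), larger in size than that of 77.0% of the 300 genes of like level. The gene lies on the X chromosome from 86191764 to 86195947 (plus strand). Its 20 nearest measured genes were spread widely, from 75416628 to 95658509. Of these, 9 rose, 1 fell and the rest did not pass, with a median of 0.10. The glycerol kinase gene Gk, next to Nr0b1 at a distance of 415 kb, was at 0.24 in the authors' deposited table. On the other side Pola1, 7109 kb away, was at -0.07 there and did not pass.

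Esrrb, a receptor gene downstream of NANOG that can stand in for it in self-renewal, had an implied 754 CPM in Tex19.1+/- and 741 CPM in Tex19.1-/- cells. At -0.02 on the log2 scale in the authors' deposited table it did not pass (adjusted p = 0.642), with an implied interval from -0.11 to 0.06. Of the 300 genes of like level, 14.7% had a smaller change. Esrrb lies on chromosome 12 from 86361117 to 86521628 (plus strand), where its neighbours Gpatch2l at -0.07 and Angel1 at 0.04 did not pass either in the authors' deposited table. Nr5a2 encodes LRH-1, a receptor that sustains Pou5f1 expression in the epiblast and can replace OCT4 in reprogramming. It stood at 78.8 and 80.6 implied CPM, or 0.03 on the log2 scale in the authors' deposited table (adjusted p = 0.527; implied interval -0.05 to 0.11), and lies on chromosome 1 from 136842571 to 136960448 (minus strand). A change of the size seen for Sox2 falls outside the implied intervals of both Esrrb and Nr5a2. Of the 20 genes nearest Nr5a2, 2 rose and 7 fell, with a median of -0.06.

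The zinc finger genes Prdm14 and Sall4 were both higher, Prdm14 by more. Prdm14 encodes a PR-domain protein that keeps ES cells naive by recruiting Polycomb and by holding down DNA methyltransferases and FGF receptors. It was the lowest of the 9 genes in level, with an implied 24.2 CPM in Tex19.1+/- and 29.5 CPM in Tex19.1-/- cells, a rise of 22.0%. The rise of 0.29 on the log2 scale in the authors' deposited table (adjusted p = 2.93e-06) was larger than that of 85.3% of genes of like level. Its implied interval, 0.17 to 0.40, was the widest of the 9 genes. Prdm14 lies on chromosome 1 from 13113457 to 13127163 (minus strand), between the sulfatase gene Sulf1 at 0.32 and the coactivator gene Ncoa2 at -0.02 in the authors' deposited table.

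Sall4, a spalt-family zinc finger gene whose product binds OCT4 and NANOG and recruits the NuRD complex, had an implied 251 CPM in Tex19.1+/- and 271 CPM in Tex19.1-/- cells. The rise of 8.32%, 0.12 on the log2 scale in the authors' deposited table (adjusted p = 0.00468; implied interval 0.04 to 0.19), did not pass Bonferroni adjustment. It was larger than that of 62.3% of genes of like level. Sall4 lies on chromosome 2 from 168748332 to 168767943 (minus strand). Both measured neighbours fell in the authors' deposited table, the flippase gene Atp9a at -0.76 only 5.92 kb away and the zinc finger gene Zfp64 at -0.20.

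Tbx3 showed the largest change of the 9 genes. It encodes a T-box factor downstream of LIF and PI3 kinase signalling that supports self-renewal and is also active in extraembryonic endoderm. The implied level was 113.5 CPM in Tex19.1+/- and 88.0 CPM in Tex19.1-/- cells, so that it fell by 22.4%. The authors' deposited table gives -0.37 on the log2 scale (adjusted p = 1.05e-15; implied interval -0.45 to -0.28), larger than that of 94.7% of the 300 genes of like level. Tbx3 lies on chromosome 5 from 119670669 to 119684724 (plus strand), and the antisense gene Tbx3os1 overlaps its start. Among the 20 nearest measured genes 9 fell and 2 rose, with a median of -0.09. On either side, the RNA-binding protein gene Rbm19, 432 kb away, was at 0.05 and did not pass, and the Mediator gene Med13l, 905 kb away, was at -0.17 in the authors' deposited table. The fall of Tbx3 had the direction of its surroundings and was larger than their median.

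**Figure D4:**
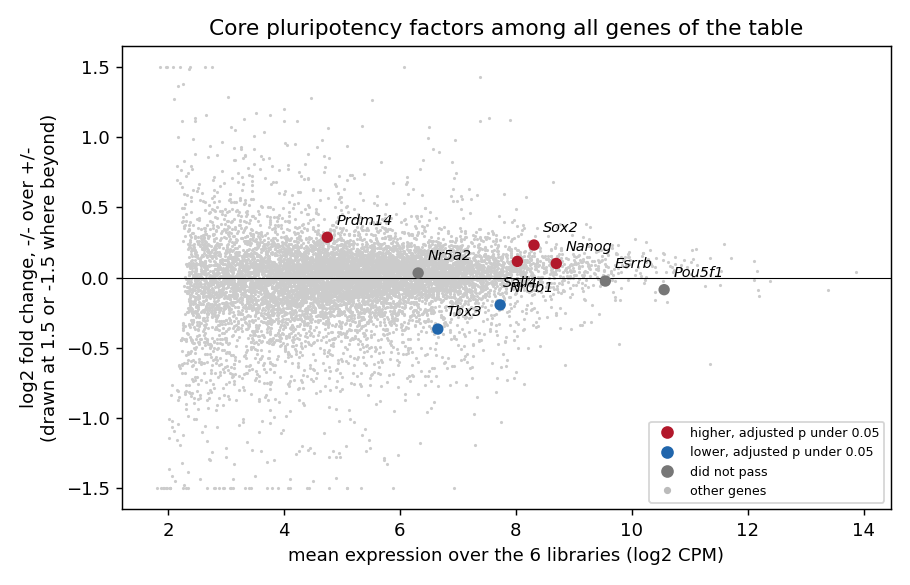
Log2 fold change against mean log2 CPM for all 10128 genes (grey; values beyond 1.5 are drawn at 1.5 or -1.5) with the 9 genes in colour by the authors' test. The 9 genes lie between -0.37 and 0.29, inside the cloud of genes of like level, and 8 of them are to the right of Prdm14.

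The wider network around the core factors held genes that rose and genes that fell. Of 33 other transcription factors of the network, all measured, 7 rose, 15 fell and 11 did not pass, with a median of -0.03. The 22 that changed make 66.7%, against 51.7% of all genes (25.2% up and 26.5% down), and no test of that difference was made. The Myc-family gene Mycn nearly doubled at 1.00, and Zfp42, the gene of the naive marker REX1, stood at 0.36, against -0.71 for the Krüppel-like factor gene Klf5 and -0.38 for the homeobox gene Gbx2 in the authors' deposited table. Tfcp2l1 and Klf4, partners of ESRRB in the naive circuit and chosen after their values were seen, were at -0.25 and -0.20 there. Klf2, also chosen after its value was seen, was at 0.32 there. Naive-state factors that share targets with the core trio thus moved both ways, as the 9 genes did.

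Of genes reported as targets of OCT4 and SOX2, more rose than fell. Leaving out the core trio itself, 14 were measured, of which 8 rose, 3 fell and 3 did not pass, with a median of 0.16, where 25.2% of all genes rose and 26.5% fell. By p-value they were led by Otx2, a homeobox gene switched on as cells leave the naive state, at 1.12, the F-box gene Fbxo15 at 0.46, Zfp42 at 0.36 and the Nodal inhibitor gene Lefty1 at 0.58, all from the authors' deposited table. Fgf4, a growth factor gene with a well-known OCT4 and SOX2 enhancer, was at -0.11 and was picked with its value known. Formative and primed epiblast genes, which follow the naive state, were higher in 12 of 16 and lower in 2, with a median of 0.44 against 25.2% up, 26.5% down and a median of 0.0031 over all genes; some of them, such as Otx2 and Pou3f1, stand in a second list here. Otx2, Sox4 at 0.73 and the cadherin gene Cdh2 at 1.04 rose in the authors' deposited table, and the FGF-responsive gene Etv4 fell, at -1.18. Its relative Etv5, in the same list and chosen after its value was seen, rose there, at 0.21.

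Genes reported to be held down by PRDM14 rose in 3 of 6 cases and fell in 1, a share changed of 66.7% that is near the 51.7% of all genes for so few. Fgfr2 at 0.66, Dnmt3a at 0.44 and Dnmt3b at 0.17 rose and Dnmt3l fell, at -0.27 in the authors' deposited table. Fgfr1, chosen after its value was seen, was at 0.03 and did not pass. Of 4 measured genes in the list of PRDM14 and NANOG cofactors, the demethylase gene Tet2 fell at -0.40 and Runx1t1 rose at 0.70. Whether the product of Runx1t1 acts as such a cofactor was not examined here. Runx1t1 had a mean of only 4.46 CPM, near the lowest mean of any measured gene at 3.52. Tet1 and the PRDM14 partner gene Cbfa2t2 were both at -0.05 and did not pass. All 4 fold changes are from the authors' deposited table.

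In the chromatin complexes that bind OCT4, SOX2, NANOG and SALL4, genes went both ways. In NuRD, a remodelling and deacetylase complex, 3 of 12 genes rose, 2 fell and 7 did not pass, with a median of -0.02. Mbd2 at -0.49 and Gatad2b at -0.16 fell and Mbd3 at 0.19 and Mta1 at 0.16 rose in the authors' deposited table, while the ATPase gene Chd4, chosen after its value was seen, was at -0.04. Of 12 genes listed for esBAF, the SWI/SNF complex of ES cells, 4 rose and 2 fell, with a median of 0.03. Smarcd1 at 0.29, Actl6a at 0.21, Smarcd2 at 0.19 and Smarce1 at 0.17 were the genes that rose in the authors' deposited table. The share that changed was 41.7% in NuRD and 6 of the 12 genes listed for esBAF, against 51.7% of all genes.

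Relatives of the 9 genes within their families went in both directions, with 10 of 21 measured up, 6 down and 5 that did not pass, against 25.2% up and 26.5% down over all genes. Among POU genes, Pou3f1, a gene of the primed state, stood at 1.16 beside -0.09 for Pou5f1. Of SOX genes, Sox4 was at 0.73, and Sox1, a SOXB1 gene like Sox2, chosen after its value was seen, was at -0.47 in the authors' deposited table. Among spalt genes Sall2 stood at 0.88, whereas Sall1 and Sall3, also chosen after their values were seen, were at 0.00 (0.0014 before rounding) and 0.02 and did not pass. Prdm11 fell, at -0.66, and Prdm1, the germ cell gene of BLIMP1, chosen after its value was seen, was at 0.42 in the authors' deposited table beside 0.29 for Prdm14. Of the 5 T-box relatives listed, none was analysed here.

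**Figure D5:**
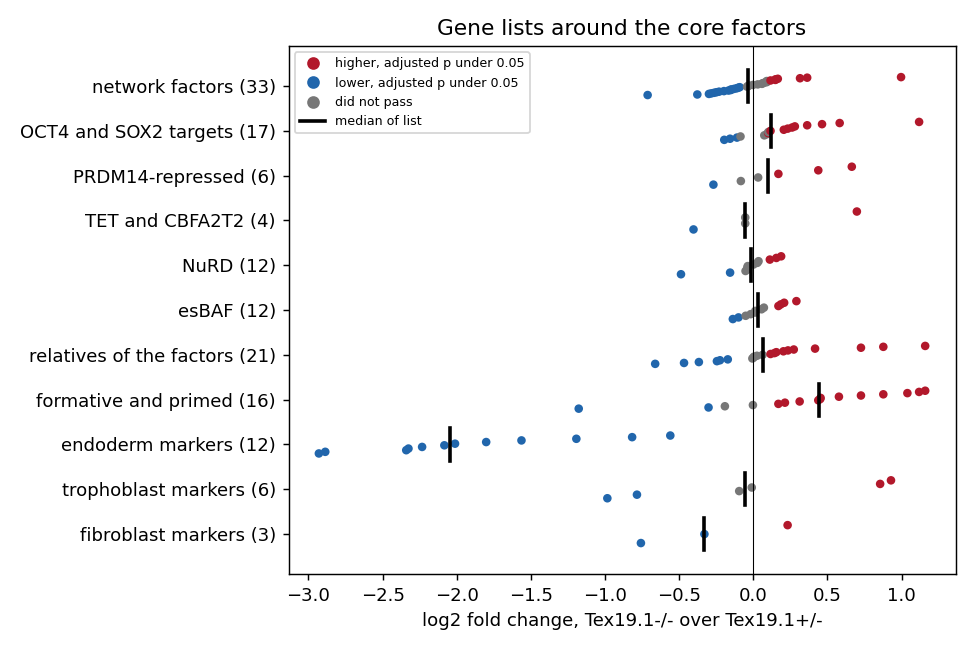
Log2 fold change of each measured gene (points, coloured by the authors' adjusted p) in 11 gene lists, with the number of measured genes in brackets and the list median as a black bar. Formative and primed genes centre at 0.44 and endoderm markers at -2.05, while the network factors, NuRD and esBAF centre within 0.04 of 0.

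The markers of the labelled cell type were abundant: Pou5f1 was above 99.6% of all genes in mean CPM, Esrrb above 98.9% and Nanog above 97.1%. Markers of primitive endoderm moved with genotype: all 12 measured of 17 listed fell, where 26.5% of all genes did, with a median of -2.05, and their summed implied level was 1084 CPM in Tex19.1+/- and 462 CPM in Tex19.1-/- cells. In the authors' deposited table Cubn was at -2.93, Srgn at -2.89, Col4a2 at -2.23 and Col4a1 at -2.01. The defining markers Gata6 and Gata4, chosen after their values were seen, were at -2.32 and -2.08 there. In bulk RNA, fewer cells of a type and less RNA per cell cannot be told apart, and the part of endoderm cells in the fall of Tbx3 or in the rises of Sox2, Nanog, Sall4 and Prdm14 was not tested. Trophoblast markers summed to 95.7 CPM in Tex19.1+/- and 104 CPM in Tex19.1-/- cells over 6 measured of 11, with 2 up (Cdh3 at 0.93, Tfap2c at 0.86) and 2 down (Krt8 at -0.98, Tead4 at -0.78). Of 13 fibroblast markers 3 were measured, Fn1 at 0.23, Vim at -0.33 and Fbn1 at -0.76 in the authors' deposited table; the other listed markers were not analysed here. A list's counts leave out members that are absent from the authors' deposited table, and why each is absent is not known. The CPM values of its 10128 genes sum to 85.1% of what all genes would reach. An absent gene need not be lowly expressed.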

How the data were processed

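Per the labels' protocols, RNA from TRIzol lysates went into TruSeq Stranded mRNA libraries for paired-end HiSeq sequencing. The submitters' processing notes name edgeR, HTSeq 0.11.2, TopHat2 2.1.0, Trim Galore 0.4.1 and the build mm10. Not given in the sources used here are the gene annotation, whether counting used strand, the limit on low counts and which edgeR test was run. Per the file headers, the authors deposited 1 log2 fold change, 1 mean log2 CPM, 1 p-value and 1 adjusted p-value for each of 10128 genes. The lowest mean was 3.52 CPM, and the CPM values sum to 85.1% of what all genes would reach. Benjamini-Hochberg values recomputed from the deposited p-values differed from the deposited adjusted ones by at most 6.7e-05.

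The count model planned for values per library was not run, because the table holds the comparison only; the authors' adjusted p with a threshold of 0.05 took its place. The 9 genes and 11 gene lists were chosen with earlier results of these data known. Lists are described by counts and medians. Named genes are the 9, Tex19.1, up to 4 genes of each list with the smallest p-value, and the nearest measured gene on either side; a gene outside this rule is marked as chosen with its value seen. Listed symbols that were older names of another listed gene were dropped.

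Standard errors were implied as the log2 fold change over the normal quantile of its p-value, with z limited to 38, and intervals are 1.96 of these either way. Implied CPM per genotype weights both genotypes equally. Size ranks use the 300 genes nearest in mean level. Positions, exon lengths and GC content come from GENCODE M21 on GRCm38 (mm10), in which 9708 symbols matched, and neighbours are the 10 nearest measured genes on each side. Promoter windows of 250 bases come from RefSeq. Alternatives were Bonferroni adjustment, a threshold of 0.01, a minimum of 16 CPM, fold changes centred on their median, and a lowess trend (span 0.3) on GC content and length subtracted. Python 3.11.15, numpy 2.4.6, scipy 1.17.1 and statsmodels 0.14.6 were used. The implied standard errors, the Benjamini-Hochberg adjustment and the trend subtraction were tested on simulated data. The p-values simulated there came from the same normal formula, so the normal approximation to the authors' p-values was not checked.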

Additional observations from a re-analysis of the deposited data

How the results depend on the processing

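Over 5 alternative settings the 9 genes gave 45 values, of which 39 stayed on the same side of the threshold, 4 lost their call and 2 gained one. Only 18 of the 45, from centring (a shift of 0.0031) and from removing a GC and length trend, alter a fold change, and none of these changed direction. Nanog, at 0.10, lost its call at an adjusted p under 0.01 (adjusted p = 0.0359) and with Bonferroni adjustment of the authors' edgeR p-values (adjusted p = 1), and at 0.0897 with a GC and length trend removed (adjusted p = 0.0654). Sall4, at 0.12, lost it with Bonferroni adjustment of the edgeR p-values (adjusted p = 1). Pou5f1 passed at -0.0893 with centring on the median (adjusted p = 0.0449) and at -0.11 with that trend removed (adjusted p = 0.0104). Bonferroni adjustment left 2 of the 9 genes higher, and 970 higher and 1443 lower of all genes, 2413 in all against 5236; the stricter limit accounts for the smaller counts. Size ranks with 100 or 1000 nearest genes stayed within the counting interval in 17 of 18 cases; Pou5f1 moved to 41.0% with 100. List counts stayed within 1.5 times in 20 of 22 cases. The 2 that moved were at 16 CPM or more, where these lists held fewer genes. All 7 endoderm markers left at that level were called, all lower. Of 3 genes left in the list of PRDM14 and NANOG cofactors, 1 was called. No paired analysis was possible because the table holds no values per library, so the replicate block, leaving out single libraries and DESeq2 were not run. Depth per library is unknown.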
